A study of Homo sapiens with 19 samples.

Results

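Growth factor receptors of melanocytes and of melanoma cells were described here as a set of 10 genes, matched by symbol to 1 Ensembl gene each, of 44717 genes listed in the deposited read count tables. All 10 were listed in all 19 samples. The set was chosen by name: 3 receptors of melanocytic cells (ERBB3, KIT and EDNRB), 5 receptors associated with dedifferentiated melanoma cells (AXL, NGFR, EGFR, FGFR1 and PDGFRB) and 2 receptors described in both states (MET and IGF1R). Total RNA was sequenced from 501Mel, an established human melanoma cell line, and from Hermes 3A, an immortalised line of human melanocytes, after lentiviral short hairpin RNA (shRNA) silencing of BRG1 or MITF. BRG1, encoded by SMARCA4, is the ATPase of a chromatin remodelling complex, and MITF is the master transcription factor of the melanocyte lineage. In 501Mel cells, 3 shBRG1 samples were set against 3 samples with the scramble control shSCR1, and 2 shMITF samples against 2 samples with the scramble control shSCR2. In Hermes 3A cells, 3 shBRG1 and 3 shMITF samples shared the same 3 shSCR controls, so that their comparisons are not independent. Each silenced group rested on 1 hairpin in 1 cell line, and the cells were selected with puromycin. Hermes 3A cells were kept in a medium that also held stem cell factor, endothelin-1, TPA and cholera toxin, so cell line and medium cannot be told apart, and the medium supplied the ligands of KIT and EDNRB. The paper states that its lentiviral experiments were done at least in triplicate, although shMITF and shSCR2 of 501Mel have 2 samples each here. No source states that the sequenced replicates came from separate infections. The p-values then measure the spread between these samples, which may be technical.

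Receptor tyrosine kinases such as KIT, MET, EGFR and AXL bind a secreted ligand outside the cell, pair, and phosphorylate each other and the adaptors that feed the MAP kinase and PI3 kinase pathways. KIT and the endothelin receptor EDNRB guide survival and migration of melanoblasts, and ERBB3 relays neuregulin signals through a partner kinase because its own kinase is nearly inactive. In melanoma, cells with much MITF tend to carry the melanocytic receptors, whereas cells that have lost MITF or SOX10 tend to carry AXL, EGFR, PDGFRB or the neural crest receptor NGFR.

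The targeted genes fell with their hairpins. SMARCA4 fell by 2.36 on the log2 scale in 501Mel shBRG1 cells, and it fell by 2.38 in Hermes 3A shBRG1 cells. MITF fell by 1.06 in 501Mel shMITF cells and by 0.85 in Hermes 3A shMITF cells, with adjusted p-values of 0.0014 and 0.019 (edgeR quasi-likelihood test with Benjamini-Hochberg adjustment, used for every adjusted p given here unless DESeq2 is named). The fall of MITF in 501Mel shMITF cells did not pass against the pooled shSCR1 and shSCR2 samples (-0.58, adjusted p = 0.41), and that in Hermes 3A shMITF cells did not pass without any 1 of the 3 controls (adjusted p from 0.069 to 0.096) or without shMITF replicate 3 (adjusted p = 0.052). MITF also fell by 1.55 in 501Mel and by 0.43 in Hermes 3A upon shBRG1, the latter not passing when all Hermes 3A groups were fitted together (adjusted p = 0.071). SOX10, a partner of MITF, fell by 2.44 in 501Mel shBRG1 cells. Libraries held between 29158502 and 78857900 counts. The biological coefficient of variation was 28.6% among the Hermes 3A shMITF samples, 16.5% among 501Mel shSCR2 and 17.3% among 501Mel shMITF samples, and between 4.56% and 5.88% in the other 4 groups. The tables of the Hermes 3A shMITF samples listed 34033 genes and those of 501Mel shSCR2 and shMITF 41467, against 42224 in the other samples. All 7 melanocyte markers examined (MITF, SOX10, PMEL, MLANA, TYR, TYRP1 and DCT) exceeded 1 CPM (the read count normalised for library size) in every group. As both lines passed, these markers do not tell melanoma cells from melanocytes.

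Sequences upstream of the receptor genes were read from RefSeq (GRCh38.p14), in which 7 of the 10 receptors had 10 start sites, and the 250 bases before each start were searched on both strands for the letters of motifs of MITF (M-box TCATGTG, E-boxes CACGTG and CATGTG), SOX proteins (ACAATG and AACAAAG), AP-1 (TGANTCA) and TEAD (GGAATG). The M-box contains the E-box CATGTG. The M-box was found in none of the 10 windows, against 2.52% of 35116 windows of the same length, and neither CACGTG nor a SOX motif was found. CATGTG, present in 9.42% of all windows, lay upstream of 1 start each of EDNRB, AXL and EGFR. The stretch of EDNRB is shown because its mRNA fell upon both knockdowns of 501Mel, that of AXL because its mRNA rose in all 4 comparisons, and that of MET because its mRNA fell in 3 comparisons. Capitals mark the E-box CATGTG, read on the opposite strand as CACATG, and in AXL also the TEAD motif, read as CATTCC.
EDNRB, chr13:77919816-77919845, minus strand, with the motif 151 bases before the start: gctgccgggtgtCACATGgtgcgtgataac
AXL, chr19:41226505-41226754, plus strand, before the second of its listed starts: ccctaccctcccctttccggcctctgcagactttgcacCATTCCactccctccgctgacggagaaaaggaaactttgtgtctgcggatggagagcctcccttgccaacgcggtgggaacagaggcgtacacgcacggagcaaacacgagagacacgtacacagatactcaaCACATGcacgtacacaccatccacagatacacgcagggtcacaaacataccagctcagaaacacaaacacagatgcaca
MET, chr7:116671946-116672195, plus strand, with none of the motifs: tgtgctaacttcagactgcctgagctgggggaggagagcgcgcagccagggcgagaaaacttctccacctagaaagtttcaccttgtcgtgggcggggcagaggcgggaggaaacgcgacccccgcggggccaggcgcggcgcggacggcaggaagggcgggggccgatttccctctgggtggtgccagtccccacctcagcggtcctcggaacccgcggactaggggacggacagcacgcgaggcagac
The TEAD letters, present in 11.9% of all windows, also lay upstream of the other start of EDNRB and of 1 start of EGFR, and the AP-1 letters, present in 6.57%, were found upstream of EGFR alone. The windows of KIT, PDGFRB and IGF1R held none of these letters. The window around the EDNRB stretch overlapped annotated exons, whereas the AXL window lay inside the gene without touching an exon and the MET window just before the gene. A match of letters is a description and no evidence of binding, and binding was not measured in these libraries.

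The receptors differed widely in level. On the RPKM scale, which divides the normalised count by the summed exon length, KIT, MET and EDNRB took the top 3 ranks in each of the 7 groups. In 501Mel shSCR1 cells KIT stood at 89.98 ± 2.5 RPKM (SD, n = 3), MET at 66.0 ± 5.8, EDNRB at 49.2 ± 6.2 and IGF1R at 28.4 ± 0.16, and none of these neighbours overlapped. FGFR1 followed at 4.92 RPKM, ERBB3 at 0.566, NGFR at 0.226, AXL at 0.0678, PDGFRB at 0.0438 and EGFR at 0.0133, and among these only AXL and PDGFRB overlapped in range. In Hermes 3A shSCR cells MET led with 124.4 ± 4.9 RPKM (SD, n = 3), followed by KIT at 109.4 ± 3.2 and EDNRB at 40.2 ± 1.4. FGFR1, IGF1R and ERBB3 then lay close together at 7.31, 6.37 and 5.19 RPKM without overlap, above NGFR at 1.08 and EGFR at 0.526, and AXL and PDGFRB were again lowest and overlapped. Thus the receptors of dedifferentiated cells made up 2.21% ± 0.18 (SD, n = 3) of the summed RPKM of the 10 receptors in 501Mel shSCR1 cells and 3.07% ± 0.11 in Hermes 3A shSCR cells, most of it from FGFR1.

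**Figure D1:**
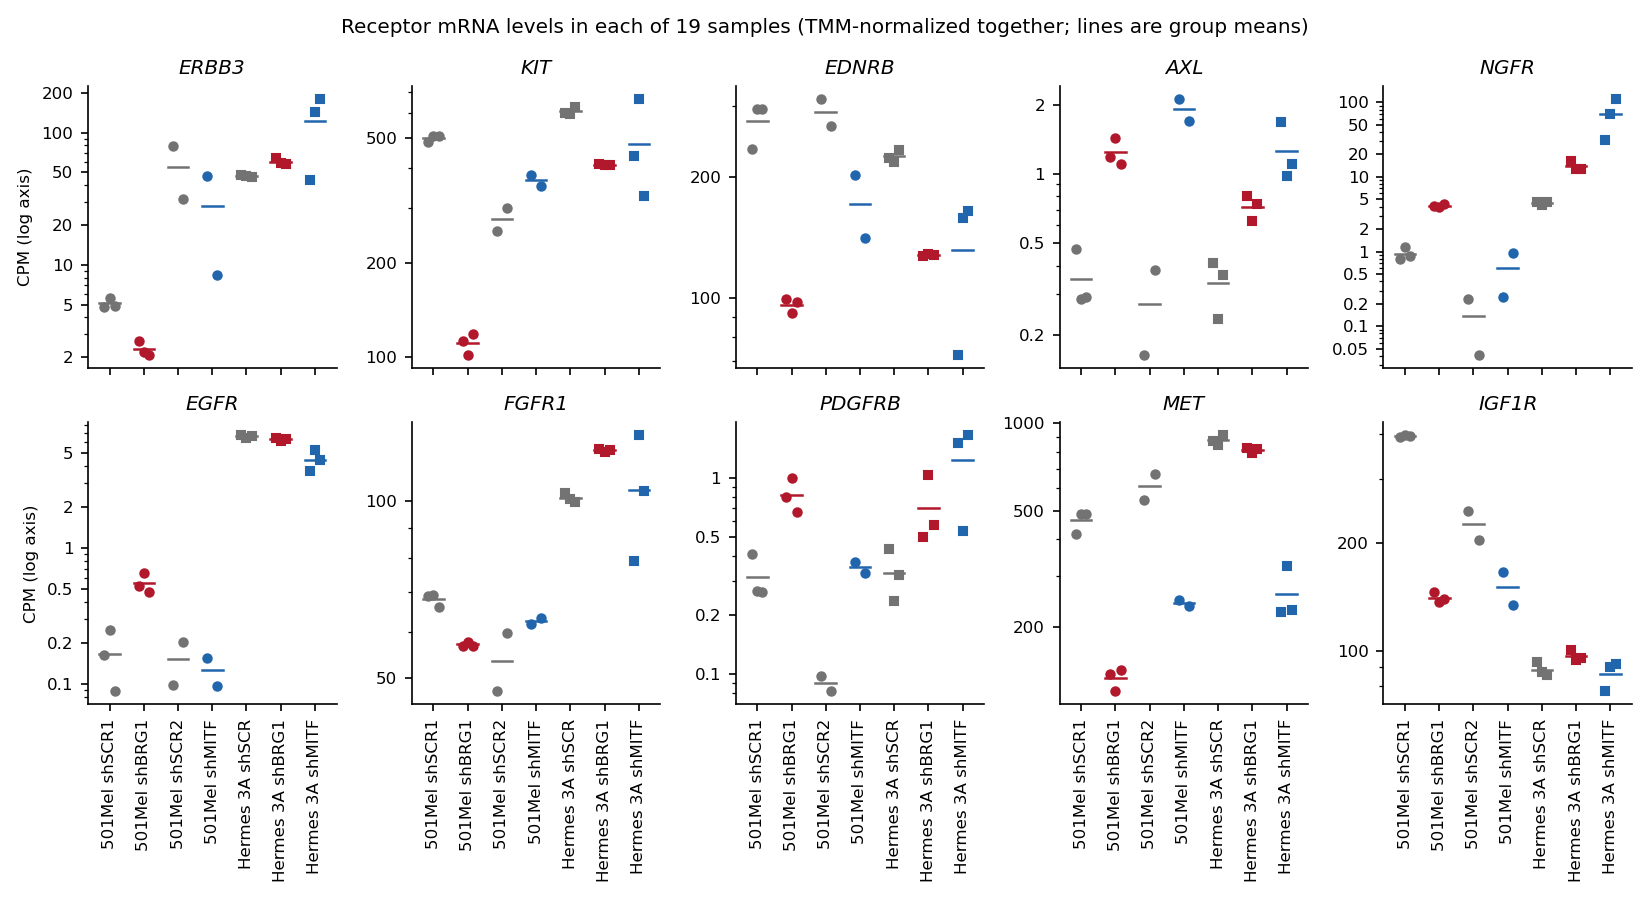
Receptor mRNA in CPM (normalised read counts, log axis) for each of the 19 samples, 1 panel per receptor, with grey for scramble, red for shBRG1 and blue for shMITF, circles for 501Mel, squares for Hermes 3A and lines for group means. KIT fell to between 101.5 and 118.5 CPM in 501Mel shBRG1 cells, and AXL stayed at or under 2.12 CPM in every sample.

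The first question was how the melanocytic receptors responded to the loss of BRG1 or MITF. In 501Mel cells all 3 fell upon shBRG1, whereas no other knockdown lowered all of them. KIT (ENSG00000157404, chr4:54657918-54740715, plus strand; gene coordinates from GENCODE 29 on GRCh38), the receptor of stem cell factor, measured 484.7, 508.3 and 508.7 CPM in 501Mel shSCR1 samples and 112.5, 101.5 and 118.5 CPM in shBRG1 samples. The groups were far apart, and the log2 fold change was -2.24 ± 0.05 (SE), a 4.73-fold fall (adjusted p = 1.2e-20). In Hermes 3A, KIT measured 602.0, 594.9 and 628.6 CPM in shSCR samples and 411.8, 409.9 and 410.1 CPM in shBRG1 samples. The fall of 0.56 ± 0.04 on the log2 scale passed the test (adjusted p = 9.5e-13) without reaching a log2 change of 1, and it did not pass when all Hermes 3A groups were fitted together (adjusted p = 0.083). After shMITF in 501Mel, KIT rose from 252.8 and 298.5 CPM to 379.7 and 352.7 CPM, or 0.45 ± 0.13 on the log2 scale (adjusted p = 0.034). That call was lost when shSCR2 replicate 1 or either shMITF replicate was left out (adjusted p from 0.06 to 0.234), and the value was -0.14 against the pooled shSCR1 and shSCR2 samples. KIT in Hermes 3A shMITF samples spread over 438.5, 666.6 and 325.7 CPM, on both sides of the controls (-0.32 ± 0.24, adjusted p = 0.40), and passed without replicate 2 (-0.65, adjusted p = 0.025).

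EDNRB (ENSG00000136160, chr13:77895481-77975529, minus strand), the endothelin receptor type B, was lower with all 4 knockdowns, and the difference passed the test in 3 of them. It measured 235.5, 295.7 and 296.4 CPM in 501Mel shSCR1 samples against 99.8, 92.0 and 97.7 CPM upon shBRG1, a log2 fold change of -1.58 ± 0.07 (adjusted p = 5.0e-12). EDNRB in Hermes 3A fell from 223.4, 218.7 and 234.3 CPM to 127.2, 129.2 and 128.3 CPM upon shBRG1, or -0.80 ± 0.04 (adjusted p = 4.1e-16). The silenced samples lay below every control sample in both lines. Upon shMITF in 501Mel, EDNRB measured 202.7 and 141.6 CPM against 313.4 and 267.6 CPM, or -0.72 ± 0.17 (adjusted p = 0.02), and the call was lost with pooled controls (adjusted p = 0.096) and without shMITF replicate 2 (adjusted p = 0.052). Hermes 3A shMITF samples measured 72.3, 158.3 and 164.8 CPM, all below the controls. The log2 change there was -0.75 ± 0.28 (adjusted p = 0.098), and it passed the test without shMITF replicate 1 (-0.46, adjusted p = 0.0095), in which EDNRB was lowest. It also passed by DESeq2 (adjusted p = 0.036), with the replicate block (adjusted p = 0.027) and with all Hermes 3A groups in 1 fit (adjusted p = 0.038), so that the outcome there depended on the fit.

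ERBB3 (ENSG00000065361, chr12:56076799-56103505, plus strand), the kinase-poor receptor of neuregulins, set the scramble groups apart more than any knockdown did. It measured 4.81, 5.63 and 4.92 CPM in 501Mel shSCR1 samples but 79.2 and 31.5 CPM in 501Mel shSCR2 samples, although both groups are scramble controls of the same line. The shSCR2 samples were higher by 3.43 ± 0.40 on the log2 scale (adjusted p = 0.00053). Upon shBRG1 in 501Mel, ERBB3 measured 2.68, 2.17 and 2.07 CPM, a fall of 1.21 ± 0.12 against shSCR1 (adjusted p = 2.6e-09), which did not pass when all 501Mel groups were fitted together (adjusted p = 0.19). Upon shMITF in 501Mel it measured 47.1 and 8.36 CPM, overlapping the shSCR2 samples (-0.98 ± 1.1, adjusted p = 0.62). The Hermes 3A cells went the other way. There ERBB3 measured 47.6, 46.9 and 46.3 CPM in shSCR samples and 64.4, 58.5 and 57.5 CPM in shBRG1 samples, a rise of 0.37 ± 0.05 (adjusted p = 5.7e-07) that did not pass when all Hermes 3A groups were fitted together (adjusted p = 0.54). The Hermes 3A shMITF samples measured 44.0, 143.4 and 180.2 CPM, with a log2 difference of 1.41 ± 0.42 and an adjusted p of 0.0504, just over the threshold. Without shMITF replicate 1, the one at the control level, the difference was 1.801 (adjusted p = 0.00023). It also passed by DESeq2 (adjusted p = 0.0025), with library sizes in place of TMM factors (adjusted p = 0.046) and with all Hermes 3A groups in 1 fit (adjusted p = 0.0195).

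The summed level of the melanocyte markers was also lower in the silenced samples. Their summed level ranged from 29330 to 31530 CPM in 501Mel shSCR1 samples and from 3111 to 3406 CPM upon shBRG1, from 20750 to 23260 CPM in shSCR2 and 11370 to 11790 CPM in 501Mel shMITF samples, and from 63360 to 64550 CPM in Hermes 3A shSCR against 30250 to 31890 CPM upon shBRG1 and 25940 to 34020 CPM upon shMITF. All 7 markers remained above 1 CPM. PMEL or TYRP1 had the highest mean in each group, so the sum mostly follows these genes, and it includes MITF, the target of shMITF. Not every marker fell, since SOX10 had a mean of 794.8 CPM in Hermes 3A shMITF against 665.7 CPM in shSCR samples. In these bulk samples fewer cells of a type and less RNA per cell cannot be told apart, and the part of this shift in the receptor changes was not tested.

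MET (ENSG00000105976, chr7:116672390-116798386, plus strand), the receptor of hepatocyte growth factor, fell upon shMITF in both lines and upon shBRG1 in 501Mel. In 501Mel it measured 418.0, 486.9 and 489.6 CPM with shSCR1 and 137.8, 120.1 and 142.5 CPM with shBRG1, a log2 fold change of -1.87 ± 0.07 (adjusted p = 2.1e-16). With shSCR2 it measured 544.6 and 671.1 CPM and with shMITF 246.9 and 235.5 CPM, or -1.29 ± 0.13 (adjusted p = 0.00063). In Hermes 3A, shMITF lowered MET from 872.2, 842.6 and 911.8 CPM to 225.8, 324.9 and 229.1 CPM, or -1.72 ± 0.18 (adjusted p = 0.00099). These 3 sets of silenced samples lay entirely below their controls. The Hermes 3A shBRG1 samples kept 825.2, 794.6 and 818.4 CPM, and the log2 difference of -0.09 ± 0.04 did not pass the test (adjusted p = 0.055). This small difference passed by DESeq2 (adjusted p = 0.019), with the replicate block (adjusted p = 0.045) and without shSCR replicate 2 (adjusted p = 0.023), and it was 0.010 with library sizes. MET was the only one of the 10 receptors called lower in both shMITF comparisons.

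IGF1R (ENSG00000140443, chr15:98648539-98964530, plus strand), the receptor of insulin-like growth factors, fell upon both knockdowns of the melanoma line and changed little in Hermes 3A. In 501Mel it measured 393.4, 397.7 and 394.8 CPM with shSCR1 and 145.8, 137.0 and 139.4 CPM with shBRG1, a log2 fold change of -1.56 ± 0.05 (adjusted p = 3.2e-19). With shSCR2 it measured 245.2 and 204.0 CPM and with shMITF 166.2 and 134.5 CPM, or -0.54 ± 0.14 (adjusted p = 0.029), a call lost with library sizes in place of TMM factors (adjusted p = 0.067) and without shSCR2 replicate 1 or shMITF replicate 2 (adjusted p = 0.098 and 0.12). Against the pooled scramble samples it was -1.10 (adjusted p = 0.11). Its level in Hermes 3A lay between 77.2 and 100.8 CPM in all 9 samples. The difference there was 0.14 ± 0.04 upon shBRG1 (adjusted p = 0.0074), which did not pass when all Hermes 3A groups were fitted together (adjusted p = 0.34) or without shBRG1 replicate 1 (adjusted p = 0.082), and -0.01 ± 0.12 upon shMITF (adjusted p = 0.96).

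**Figure D2:**
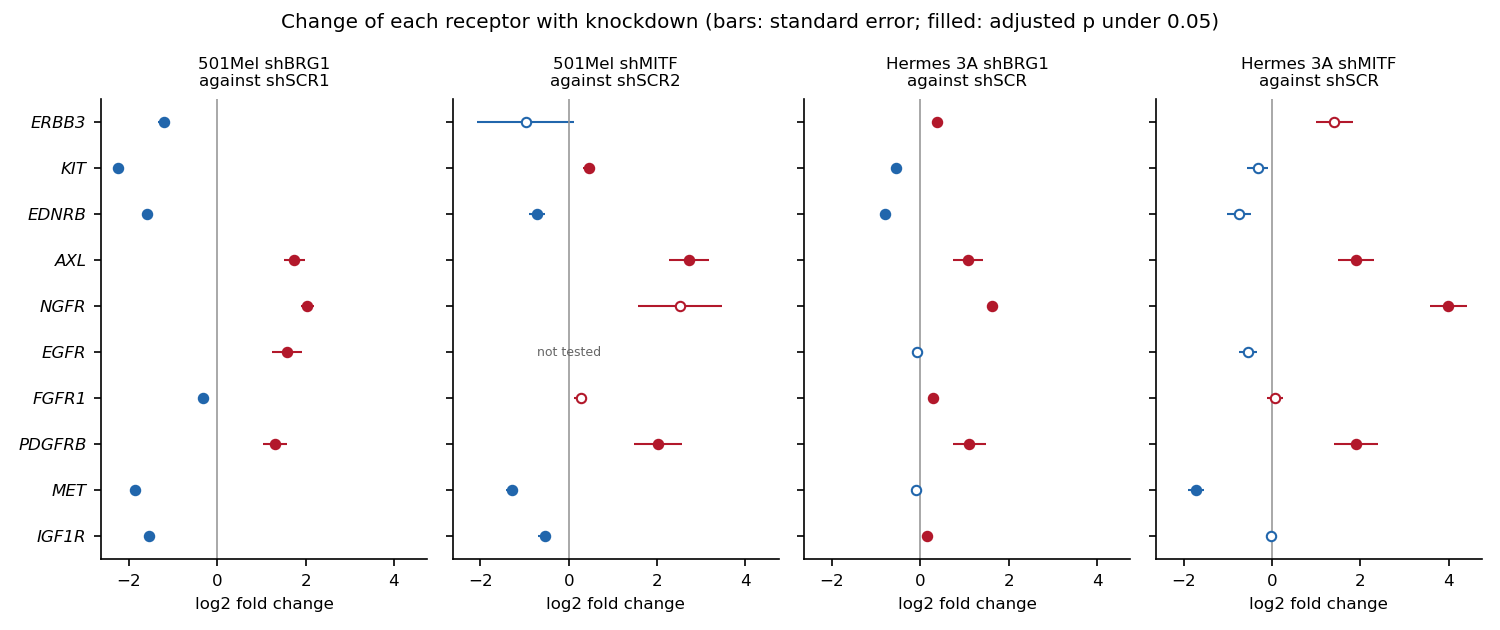
Log2 fold change of each receptor (x axis) in the 4 knockdown comparisons, with standard errors, red for higher and blue for lower than the scramble control, and filled points for an adjusted p under 0.05. AXL and PDGFRB lie to the right in all 4 panels, between 1.08 and 2.73, while KIT ranges from -2.24 to 0.45.

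The second question was whether receptors of dedifferentiated cells rose. AXL and PDGFRB passed the threshold in all 4 comparisons, NGFR in 3 and EGFR in 1. PDGFRB lost its call under some alternatives in every comparison but 501Mel shBRG1, and AXL and PDGFRB stayed at or under 96 counts per library. NGFR (ENSG00000064300, chr17:49495293-49515017, plus strand), the low-affinity neurotrophin receptor and a neural crest marker, reached the highest level among these receptors. FGFR1, which moved little, had a higher mean even where NGFR was highest (104.2 against 70.73 CPM in Hermes 3A shMITF samples). In Hermes 3A it measured 4.68, 4.202 and 4.61 CPM with shSCR, 16.2, 12.7 and 12.6 CPM with shBRG1 and 31.1, 69.8 and 111.3 CPM with shMITF. The log2 fold changes were 1.63 ± 0.10 (adjusted p = 9.4e-14) and 3.997 ± 0.42, a 16.0-fold rise (adjusted p = 0.001). In 501Mel it rose from 0.798, 1.14 and 0.878 CPM with shSCR1 to 4.06, 3.92 and 4.28 CPM with shBRG1, or 2.04 ± 0.15 (adjusted p = 1.0e-11). None of these silenced samples overlapped its controls. With shSCR2, NGFR measured 0.229 and 0.0409 CPM (7 and 3 counts), and with shMITF 0.243 and 0.948 CPM. The difference of 2.52 ± 0.95 did not pass the test (adjusted p = 0.11). It passed with no filter on low counts (adjusted p = 0.00059), with all 501Mel groups in 1 fit (2.59, adjusted p = 0.014), without shSCR2 replicate 1 (3.85, adjusted p = 0.012) and without shMITF replicate 1 (3.19, adjusted p = 0.0074), whereas against the pooled scramble samples it was close to 0 (-0.00062). The shSCR2 samples held less NGFR than shSCR1, with a log2 difference of -3.19 ± 0.45 (adjusted p = 1.1e-05), and the value in 501Mel shMITF cells depended on the control chosen.

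AXL (ENSG00000167601, chr19:41219203-41261766, plus strand), the receptor of GAS6 and a marker of invasive melanoma cells, measured 0.471, 0.285 and 0.293 CPM with shSCR1 and 1.19, 1.43 and 1.11 CPM with shBRG1 in 501Mel, or 1.74 ± 0.24 (adjusted p = 5.5e-07). It rose from 0.163 and 0.382 CPM with shSCR2 to 2.12 and 1.70 CPM with shMITF, or 2.73 ± 0.45 (adjusted p = 0.0041). The highest of these values stood for 96 counts in 1 library, and the silenced samples were higher in each pair of groups. Hermes 3A samples measured 0.411, 0.235 and 0.365 CPM with shSCR, 0.801, 0.624 and 0.740 CPM with shBRG1 and 1.68, 0.984 and 1.10 CPM with shMITF. The rises of 1.08 ± 0.34 (adjusted p = 0.0083) and 1.90 ± 0.40 (adjusted p = 0.015) also kept the groups apart. The latter missed the threshold when any 1 of the 3 control samples was left out (adjusted p from 0.064 to 0.084), with log2 values from 1.70 to 2.05. The rise upon shBRG1 went down to 0.898 at its lowest with 1 sample left out, under the log2 threshold of 1.

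PDGFRB (ENSG00000113721, chr5:150113837-150155872, minus strand), a platelet-derived growth factor receptor of mesenchymal cells, was of similarly low level. It measured 0.409, 0.266 and 0.263 CPM with shSCR1 and 0.796, 1.00 and 0.671 CPM with shBRG1 in 501Mel, or 1.31 ± 0.27 (adjusted p = 0.00012). With shSCR2 it measured 0.0981 and 0.0817 CPM (3 and 6 counts) and with shMITF 0.375 and 0.329 CPM (17 counts each), or 2.02 ± 0.55 (adjusted p = 0.031). The latter did not pass without any 1 of the 4 samples (adjusted p from 0.10 to 0.239) or with pooled controls (0.67, adjusted p = 0.58), since the shSCR1 samples were at the level of the shMITF samples. Hermes 3A samples measured 0.434, 0.235 and 0.320 CPM with shSCR, 0.498, 1.04 and 0.578 CPM with shBRG1 and 1.51, 0.540 and 1.65 CPM with shMITF. The rise upon shBRG1 was 1.11 ± 0.37 (adjusted p = 0.012), and it was 0.69 (adjusted p = 0.19) without shBRG1 replicate 2 and 1.10 (adjusted p = 0.14) with all Hermes 3A groups in 1 fit. The rise upon shMITF was 1.90 ± 0.50 (adjusted p = 0.035), with adjusted p-values from 0.056 to 0.145 when any of the 3 controls or shMITF replicates 1 or 3 was left out. In both knockdowns every silenced sample was above every control sample in CPM, at 8 to 60 counts per sample. Such separation says little by itself. All 10 receptors were apart in this way in Hermes 3A shBRG1, among them EGFR, which did not pass the test (adjusted p = 0.59).

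EGFR (ENSG00000146648, chr7:55019021-55211628, plus strand), the receptor of epidermal growth factor, was close to the detection limit in 501Mel. It held 8, 13 and 3 counts with shSCR1, and 31, 38 and 24 counts with shBRG1, which stand for 0.164, 0.247 and 0.0878 against 0.525, 0.656 and 0.474 CPM. The difference of 1.58 ± 0.34 (adjusted p = 0.00019) left it below 1 CPM. With shSCR2 and shMITF it held 3 to 15 counts and was not tested because of its low counts. In Hermes 3A it measured 6.71, 6.41 and 6.64 CPM with shSCR, 6.35, 6.08 and 6.29 CPM with shBRG1 and 3.67, 5.24 and 4.41 CPM with shMITF. The differences of -0.07 ± 0.10 (adjusted p = 0.59) and -0.54 ± 0.21 (adjusted p = 0.11) did not pass the test. The latter passed with all Hermes 3A groups in 1 fit (-0.55, adjusted p = 0.028) and without shMITF replicate 2 (-0.69, adjusted p = 0.035).

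FGFR1 (ENSG00000077782), a receptor of fibroblast growth factors, was abundant in both lines and moved little. In 501Mel it measured 69.0, 69.4 and 66.0 CPM with shSCR1 and 56.9, 57.7 and 56.9 CPM with shBRG1. The fall of 0.32 ± 0.05 on the log2 scale (adjusted p = 1.4e-06) depended on scaling, since the value was 0.03 with library sizes in place of TMM factors, and it did not pass against the pooled scramble samples (-0.15, adjusted p = 0.36). In Hermes 3A it rose by 0.28 ± 0.04 upon shBRG1 (adjusted p = 7.8e-07), from 103.1, 100.8 and 99.6 CPM to 122.4, 121.2 and 122.0 CPM, a rise that did not pass when all Hermes 3A groups were fitted together (adjusted p = 0.21). In shMITF samples it measured 61.9 and 63.4 CPM in 501Mel (0.26 ± 0.14, adjusted p = 0.23) and 79.1, 129.4 and 104.2 CPM in Hermes 3A (0.07 ± 0.18, adjusted p = 0.82).

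Counted together, 4 of the 10 receptors were called higher (AXL, NGFR, EGFR and PDGFRB) and 5 lower (ERBB3, KIT, EDNRB, MET and IGF1R) in 501Mel shBRG1 cells, where a call needed an adjusted p under 0.05 and a log2 change over 1. Of the 20514 genes tested, 39.1% were called there, 21.7% higher and 17.4% lower, and 80.3% passed the adjusted p alone, as did all 10 receptors. The balance depended on scaling, with 4453 genes called higher and 3571 lower by TMM and 6192 and 2398 by library sizes. In 501Mel shMITF cells 2 of 9 tested receptors were called higher (AXL and PDGFRB, the latter lost without any 1 of the 4 samples) and 1 lower (MET), against 5.59% and 3.40% of 17701 genes (8.99% in all). The adjusted p alone was passed by 6 receptors and by 20.5% of genes. In Hermes 3A shBRG1 cells 3 were called higher (AXL, NGFR and PDGFRB, and only 1 of them without shSCR replicate 2) and 0 lower, against 5.78% and 3.47% of 17222 genes (9.26% in all), or 996 and 598 genes by TMM and 1231 and 467 by library sizes. Of the receptors not called lower there, KIT and EDNRB passed the adjusted p alone, as did 28.6% of all genes on the lower side and 56.9% in either direction. In Hermes 3A shMITF cells 3 were called higher (AXL, NGFR and PDGFRB, and only 1 of them without any 1 of the controls) and 1 lower (MET), against 3.35% and 4.04% of 16508 genes (7.39% in all, and 17.0% by the adjusted p alone), or 553 and 667 genes by TMM and 686 and 540 by library sizes. The low-count receptors AXL, PDGFRB and EGFR passed the low-count filter in part through the silenced group, where they were higher, so these counts describe the members and do not test the set. The 3 melanocytic receptors had a median log2 change of -1.58 in 501Mel shBRG1, -0.72 in 501Mel shMITF, -0.56 in Hermes 3A shBRG1 and -0.32 in Hermes 3A shMITF cells, and the tested receptors of dedifferentiated cells had medians of 1.58, 2.27, 1.08 and 1.90. The median over all genes tested was between 0.01 and 0.05 in these comparisons.

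Markers of other cell types were also read. The summed level of 6 fibroblast markers ranged from 6.79 to 9.23 CPM with shSCR1 and from 17.0 to 20.03 CPM with shBRG1 in 501Mel and lay between 382.1 and 601.8 CPM in Hermes 3A, where FAP made up most of it (321.0 CPM with shSCR, 357.2 CPM with shMITF). Of the 6 fibroblast markers, 2 or 3 exceeded 1 CPM in each group. The summed level of the 3 measured endothelial markers was at most 1.60 CPM and that of the 3 measured leukocyte markers at most 1.88 CPM in any sample. The 4 Schwann cell markers, which melanocytes share in part, summed to 372.1 to 414.1 CPM with shSCR1 and 145.1 to 152.9 CPM with shBRG1 in 501Mel, and to 1903 to 1918 CPM in Hermes 3A shSCR against 836.2 to 1211 CPM with shMITF in which NGFR was higher. Only KRT10 among the 3 measured keratinocyte markers exceeded 1 CPM. The part of other cell types in the receptor changes was not tested.

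The make-up of the receptor pool also differed between groups. The melanocytic receptors made up 58.4% ± 0.11 (SD, n = 3) of the summed RPKM in 501Mel shSCR1 cells and 52.0% ± 0.20 upon shBRG1, with no overlap. In 501Mel shMITF cells they made up 65.0% and 67.8%, against 47.8% and 52.8% with shSCR2. In Hermes 3A the share was 52.6% ± 0.27 with shSCR, 43.3% ± 0.47 with shBRG1 and 63.9% ± 4.2 with shMITF. Hence shMITF samples of both lines had a larger melanocytic share, beside a smaller share of MET (19.5% against 42.2% in Hermes 3A), and shBRG1 samples had a smaller one. The receptors of dedifferentiated cells made up 3.07% ± 0.11 with shSCR, 13.3% ± 5.3 with shMITF, of which NGFR was 8.90% ± 5.1, and 5.39% ± 0.16 with shBRG1 in Hermes 3A. In 501Mel they made up 2.21% ± 0.18 with shSCR1 and 7.68% ± 0.53 with shBRG1. Most of this was FGFR1, at 2.06% and 5.75%, and NGFR was 0.094% and 1.37%. The level of FGFR1 fell from a mean of 68.14 to 57.15 CPM there, so its share grew without a rise in level. In Hermes 3A, NGFR moved from rank 7 of 10 with shSCR to rank 4 in shMITF samples, where its range overlapped those of EDNRB and ERBB3.

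**Figure D3:**
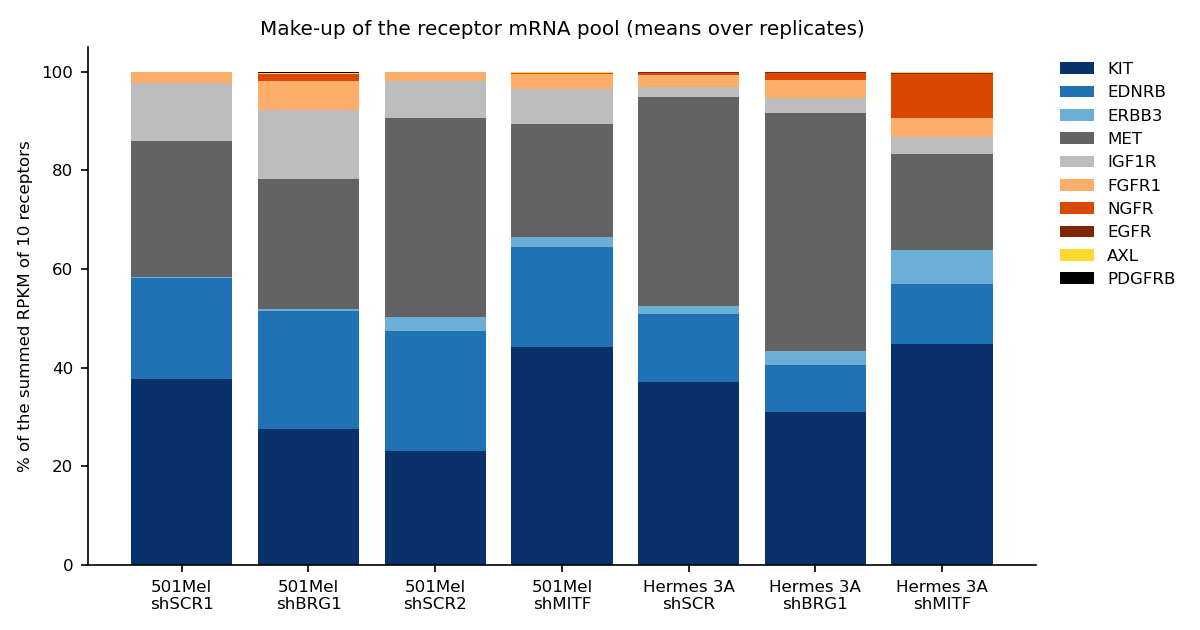
Share of each receptor in the summed RPKM of the 10 receptors (y axis, percent, starting at 0), as means over the replicates of each group, with blue for melanocytic receptors, grey for MET and IGF1R and orange, brown, yellow and black for those of dedifferentiated cells. KIT, MET and EDNRB fill most of every bar, and NGFR becomes visible at 8.90% in Hermes 3A shMITF cells.

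The third question was whether the 2 cell lines responded alike. For shBRG1, the difference between the lines was fitted as an interaction, in which 26.9% of 21697 genes were called and 57.9% passed the adjusted p alone. It passed for 7 of the 10 receptors. The response of 501Mel minus that of Hermes 3A on the log2 scale was -1.61 ± 0.12 for ERBB3, -1.72 ± 0.07 for KIT, -0.81 ± 0.08 for EDNRB, -1.801 ± 0.08 for MET, -1.72 ± 0.06 for IGF1R and -0.63 ± 0.06 for FGFR1, with adjusted p-values from 3.2e-24 to 7.8e-10. It was more positive by 1.61 ± 0.32 for EGFR (adjusted p = 4.7e-05), which held only 3 to 13 counts in the 501Mel shSCR1 samples. The minimum of 10 counts in every sample removes EGFR from this contrast. The differences for AXL (0.65 ± 0.42, adjusted p = 0.20), NGFR (0.38 ± 0.19, adjusted p = 0.088) and PDGFRB (0.17 ± 0.48, adjusted p = 0.80) did not pass, and their standard errors leave room for sizeable differences in AXL and PDGFRB. The outcome for NGFR depended on the processing, since its difference passed by DESeq2 (0.47, adjusted p = 0.047), with library sizes in place of TMM factors (0.66, adjusted p = 0.0037) and with the minimum of 10 counts per sample (0.58, adjusted p = 0.0084). It also passed without shSCR1 replicate 2 of 501Mel, shBRG1 replicate 1 of 501Mel or shBRG1 replicate 1 of Hermes 3A (adjusted p = 0.032, 0.0398 and 0.030). KIT, EDNRB, MET and IGF1R thus responded more negatively in the melanoma line. For shMITF no receptor passed the interaction test, in which 2.64% of 19284 genes were called and 2.99% passed the adjusted p alone. The differences ranged from -2.38 ± 1.1 for ERBB3 to 0.83 ± 0.63 for AXL, and that of MET was 0.42 ± 0.25 (adjusted p = 0.41). Without Hermes 3A shMITF replicate 2, KIT passed at 1.09 (adjusted p = 0.016), against 0.76 ± 0.33 (adjusted p = 0.25) with all samples.

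Within 501Mel the effects of the 2 hairpins were also set against each other, each with its own scramble samples, and 27.3% of 22255 genes were called, with 48.1% passing the adjusted p alone. The response of KIT to shBRG1 minus that to shMITF was -2.66 ± 0.12 on the log2 scale (adjusted p = 3.8e-10). The difference was also negative for IGF1R (-0.99 ± 0.13), EDNRB (-0.84 ± 0.20), FGFR1 (-0.55 ± 0.12) and MET (-0.54 ± 0.14), with adjusted p-values from 1.3e-05 to 0.0053, the one of MET being lost with library sizes in place of TMM factors (adjusted p = 0.062). EGFR responded more positively by 2.00 ± 0.68 (adjusted p = 0.024), a call on few counts. It was lost by DESeq2 (adjusted p = 0.077) and without shSCR2 replicate 2 (1.22, adjusted p = 0.40) or shMITF replicate 2 (1.75, adjusted p = 0.075). EGFR had too few counts to be tested in the shMITF comparison itself. It entered this contrast through the shBRG1 samples, where it was higher, so the call says little about its response to shMITF. ERBB3 (-0.22 ± 1.1, adjusted p = 0.89), AXL (-0.91 ± 0.46, adjusted p = 0.12), NGFR (-0.54 ± 0.82, adjusted p = 0.63) and PDGFRB (-0.69 ± 0.57, adjusted p = 0.34) did not pass. AXL alone among these passed without shSCR2 replicate 2 (-1.81, adjusted p = 0.027).

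Without knockdown the lines differed in receptor content, but the answer depended on which scramble group stood for 501Mel. Relative to Hermes 3A, EGFR was lower in both scramble groups (log2 difference of -5.22 ± 0.26 for shSCR1 and -5.25 ± 0.31 for shSCR2), as was NGFR (-2.26 ± 0.24 and -5.46 ± 0.40), whereas IGF1R was higher (2.14 ± 0.07 and 1.34 ± 0.07). The adjusted p of each was at most 2.2e-07. MET was lower in 501Mel (-0.93 ± 0.08 and -0.52 ± 0.09), and so was FGFR1 (-0.58 ± 0.07 and -0.91 ± 0.08). EDNRB was slightly higher in both (0.28 ± 0.09, adjusted p = 0.0095, and 0.37 ± 0.10, adjusted p = 0.0031). For ERBB3 the groups gave different pictures, with a log2 difference of -3.21 ± 0.38 (adjusted p = 0.00043) for shSCR1 and 0.22 ± 0.36 (adjusted p = 0.61) for shSCR2. The latter was 0.77 (adjusted p = 2.1e-10) without shSCR2 replicate 2 and -0.54 (adjusted p = 1.7e-06) without shSCR2 replicate 1. KIT was lower (-0.29 ± 0.06 and -1.14 ± 0.07), the former not passing with library sizes (adjusted p = 0.69). PDGFRB was lower with shSCR2 (-1.90 ± 0.56, adjusted p = 0.0057, and 0.081 without shSCR2 replicate 2) and did not pass with shSCR1 (-0.09 ± 0.40, adjusted p = 0.84), and AXL passed with neither (0.03 ± 0.41 and -0.18 ± 0.46). In these 2 contrasts 41.1% and 42.5% of 20354 genes were called, and 74.9% and 72.5% passed the adjusted p alone.

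Directly compared, the 2 scramble groups of 501Mel differed in 31.5% of these genes by the full call and in 66.8% by the adjusted p alone, which 7 of the 10 receptors passed. Besides ERBB3 and NGFR, shSCR2 samples had less PDGFRB (-1.81 ± 0.56), KIT (-0.84 ± 0.07), IGF1R (-0.80 ± 0.08) and FGFR1 (-0.32 ± 0.08) and more MET (0.40 ± 0.09). PDGFRB did not pass without shSCR2 replicate 2 (-1.63, adjusted p = 0.11), nor did FGFR1 without shSCR2 replicate 1 (-0.14, adjusted p = 0.086). EDNRB (0.09 ± 0.10), AXL (-0.21 ± 0.45) and EGFR (-0.03 ± 0.46) did not pass. The labels do not say how the 2 control groups differ, and hairpin, time and handling cannot be told apart, so that the shBRG1 and shMITF effects in 501Mel are each relative to a different baseline.

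Ligands of the receptors were read from a fixed list of 26 genes. Genes of this list and the lists below could pass the low-count filter through the silenced group alone. Their counts of calls therefore describe the lists and do not test them. In 501Mel shBRG1 cells 7 of 17 tested ligands were called higher and 5 lower, against 21.7% and 17.4% of all genes, with a median log2 change of 0.69 against 0.05 over all genes. PDGFB, a ligand of PDGFRB, measured 0.819, 0.779 and 0.673 CPM with shSCR1 and 19.2, 21.1 and 18.5 CPM with shBRG1, a rise of 4.61 ± 0.11 (adjusted p = 1.1e-20) that exceeded those of all other tested ligands. HBEGF, a ligand of EGFR, rose from 13.2 to 16.4 CPM to 41.9 to 43.9 CPM (1.47 ± 0.07), and the growth factor FGF1 (2.61 ± 0.16) and NRG4, a ligand of the EGFR relative ERBB4 (2.16 ± 0.09), also rose. The ERBB3 ligand NRG2 fell by 1.77 ± 0.07 and NRG3, a ligand of ERBB4, by 1.85 ± 0.07, so that the neuregulins moved in different directions. PROS1 (protein S, a ligand of AXL relatives) fell by 1.67 ± 0.05 and PDGFD by 1.92 ± 0.10. GAS6, the ligand of AXL, rose from a mean of 2.69 to 5.61 CPM (1.004 ± 0.11, adjusted p = 1.1e-08), just over the log2 threshold. KITLG, the ligand of KIT, moved opposite to its receptor, from a mean of 6.52 to 12.9 CPM (0.92 ± 0.08, adjusted p = 5.6e-10).

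In 501Mel shMITF cells 4 of 14 tested ligands were called higher and 2 lower, against 5.59% and 3.40% of all genes. PDGFB held 0 and 4 counts with shSCR2 and a mean of 127.0 counts with shMITF, and FGF1 rose from a mean of 0.140 to 3.01 CPM (4.43 ± 0.65, adjusted p = 0.0031). Both passed the low-count filter through the shMITF samples, where they were higher. PDGFD rose by 1.32 ± 0.18 (adjusted p = 0.0017), opposite in sign to its change upon shBRG1. NRG3 fell by 1.42 ± 0.22 (adjusted p = 0.0031) and IGF1, a ligand of IGF1R, by 1.87 ± 0.43 (adjusted p = 0.016). Relative to their own controls, the 501Mel cells of both knockdowns had more PDGFB and FGF1 and less NRG3. Against the pooled scramble samples, however, the shMITF differences of PDGFB (2.47, adjusted p = 0.26), FGF1 (2.40, adjusted p = 0.16) and IGF1 (-0.78, adjusted p = 0.73) did not pass. PDGFB also lost its call without shSCR2 replicate 2 (adjusted p = 0.058), and IGF1 without shSCR2 replicate 2 or shMITF replicate 2 (adjusted p = 0.066 and 0.057).

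In Hermes 3A shBRG1 cells 5 of 20 tested ligands were called higher and 1 lower, against 5.78% and 3.47% of all genes. BDNF, the ligand of NTRK2 and a ligand of NGFR, rose from 9.54, 9.99 and 10.3 CPM to 28.1, 27.1 and 27.4 CPM (1.49 ± 0.07, adjusted p = 1.5e-16). In shMITF cells 5 of 18 were called higher and 1 lower, against 3.35% and 4.04% of all genes. BDNF reached 165, 42.7 and 49.8 CPM there (3.13 ± 0.49, adjusted p = 0.0051), so that the neurotrophin and its low-affinity receptor NGFR were both higher in both knockdowns of the melanocytes. The shMITF call of BDNF was lost with no filter on low counts (adjusted p = 0.075) and without shSCR replicate 1 (adjusted p = 0.061). TGFA, a ligand of EGFR, rose from 2.21, 1.15 and 2.33 CPM to 19.8, 11.1 and 12.4 CPM upon shMITF (2.95 ± 0.33, adjusted p = 0.0013). The EGFR ligands BTC (1.52 ± 0.41, adjusted p = 0.037) and HBEGF (1.06 ± 0.20, adjusted p = 0.011) rose too, while EGFR itself did not. The call of BTC was lost when any 1 of the 3 controls or shMITF replicate 1 or 3 was left out (adjusted p from 0.054 to 0.14), and that of HBEGF when any 1 of the controls was left out (adjusted p from 0.062 to 0.080). NRG3 fell by 2.82 ± 0.44 (adjusted p = 0.0049), from 24.1 to 25.6 CPM to 1.59 to 6.32 CPM.

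**Figure D4:**
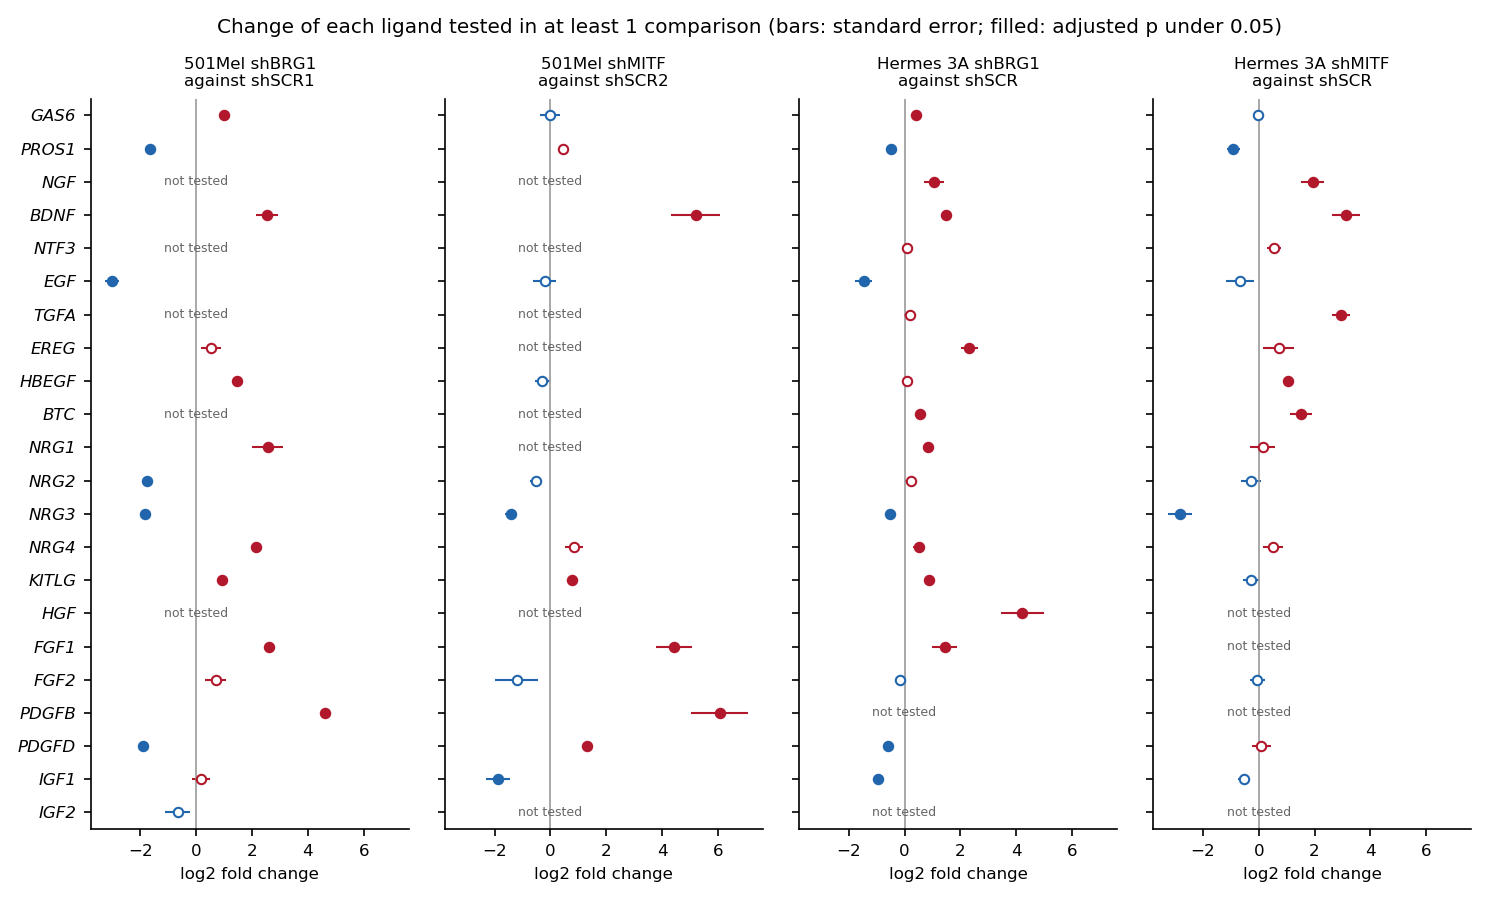
Log2 fold change (x axis) with standard error of each ligand tested in at least 1 of the 4 comparisons, red for higher and blue for lower, filled for an adjusted p under 0.05. BDNF lies to the right in all 4 panels, and NRG3 to the left, from -0.52 to -2.82.

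Related receptors and adaptors complete the pathway. Of 18 related receptors, 15 were tested in 501Mel shBRG1 cells, where 3 were called higher and 6 lower, against 21.7% and 17.4% of all genes (median -0.24). MERTK, a relative of AXL, fell by 1.74 ± 0.06, INSR, the insulin receptor, by 1.61 ± 0.07 and IGF2R, which clears IGF2, by 1.12 ± 0.05, whereas CSF1R rose by 3.25 ± 0.20 to a mean below 4 CPM. In 501Mel shMITF cells 0 of 14 tested related receptors were called, against 8.99% of all genes, and 1 (MERTK) passed the adjusted p by edgeR. In Hermes 3A shBRG1 cells 4 of 15 were called higher and 0 lower, against 5.78% and 3.47% of all genes, among them FGFR3 (1.38 ± 0.14) and the endothelin receptor EDNRA (1.06 ± 0.16), the latter not passing when all Hermes 3A groups were fitted together (adjusted p = 0.080). In Hermes 3A shMITF cells 2 of 12 were called higher and 2 lower, against 3.35% and 4.04% of all genes, with FGFR3 at 1.44 ± 0.22 (adjusted p = 0.0046), MERTK at -1.01 ± 0.18 (adjusted p = 0.0077) and IGF2R at -1.15 ± 0.16 (adjusted p = 0.0036). In the remaining comparisons, added after its values were seen, MERTK fell by 0.91 ± 0.19 in 501Mel shMITF cells (adjusted p = 0.012) and rose by 0.50 ± 0.06 in Hermes 3A shBRG1 cells (adjusted p = 2.3e-08), while AXL, of the same family, was higher in all 4.

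All 21 adaptors and inhibitors were tested in each comparison. In 501Mel shBRG1 cells 15 passed the adjusted p on the lower side and 4 on the higher side, against 39.1% and 41.2% of all genes, and the median was -0.62. By the full call 1 was higher and 3 were lower, against 21.7% and 17.4% of all genes. The phosphatase SHP2 (PTPN11) fell by 1.92 ± 0.05, PLCG1, a phospholipase recruited by activated receptors, by 1.65 ± 0.05, and ADAM10, a protease that sheds receptors and their ligands, by 2.02 ± 0.05. IRS1, the adaptor of IGF1R and INSR, rose by 1.57 ± 0.06, opposite to both receptors. In 501Mel shMITF cells the adaptor SHC4 rose by 2.21 ± 0.21 (adjusted p = 0.00063) and GAB2 fell by 1.21 ± 0.13 (adjusted p = 0.00063), the latter not passing with pooled controls (adjusted p = 0.066). In Hermes 3A shBRG1 cells 13 passed on the lower side and 4 on the higher side, against 28.6% and 28.2% of all genes. With the log2 threshold of 1, 0 were called, against 9.26% of all genes. Upon shMITF in Hermes 3A, IRS2 rose by 1.77 ± 0.14 (adjusted p = 0.00051), the EGFR inhibitor ERRFI1 by 1.07 ± 0.19 (adjusted p = 0.0079), and PTPRJ, a receptor phosphatase, fell by 1.03 ± 0.21 (adjusted p = 0.015). ERRFI1 lost its call without any 1 of the 3 controls (adjusted p from 0.054 to 0.057), and PTPRJ without shSCR replicate 2 or 3 (adjusted p = 0.065 and 0.063).

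The genes whose levels followed each receptor most closely over the 19 samples were read from log2(CPM + 0.5) of 13965 genes with a mean of at least 1 CPM. The samples share 7 groups and 2 lines, so the values describe how groups differ. The closest gene had a Pearson r of 0.97 for ERBB3 (CLASP1), 0.96 for KIT (ARMH4), 0.95 for EDNRB (ARRB1), 0.94 for AXL (GNG11), 0.96 for NGFR (ATP8B4), 0.98 for FGFR1 (INF2), 0.91 for PDGFRB (YIPF3), 0.96 for MET (ZNF106) and 0.99 for IGF1R (CRB1). EGFR, which differed between the lines more than any other of the 10 receptors in the shSCR1 contrast, had FAM43A at 0.996.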

How the data were processed

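Total RNA was depleted of ribosomal RNA, and the libraries were treated with a duplex-specific nuclease, which lowers the most abundant cDNAs and can compress high levels. For each of the 19 samples the authors deposited 1 table of raw counts of reads by Ensembl gene. The submitters' processing notes name CASAVA 1.8, Bowtie 0.12.7, TopHat 1.4.1 and hg19, while the counting program and the annotation are not given in the sources used here. Exon lengths and coordinates were taken by Ensembl ID from GENCODE 29 on GRCh38. Gene symbols came from a separate list of gene names, by which 40913 of 44717 IDs had a symbol. The counts stem from another build, and no coordinate was converted.

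Counts were tested with edgeR 4.0.16 (quasi-likelihood, TMM factors, filterByExpr, robust fit) in R 4.3.3, with Benjamini-Hochberg adjustment over all genes tested. The standard error (SE) of a log2 change was taken as its size over the root of F. Each knockdown was fitted with its own scramble samples, each interaction over its 4 groups and the scramble groups in 1 fit. Calls needed an adjusted p under 0.05 and a log2 change over 1. CPM and RPKM were computed with TMM factors over all 19 samples. The scripts were tested on simulated data. Depth was at least 29158502 counts, and at 3 to 30 counts counting error alone is large.

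Alternatives were DESeq2 1.42.0, library sizes in place of TMM, a minimum of 10 counts in every sample, no filter, a replicate block, all groups of a line in 1 fit, pooled scramble controls and leaving out each replicate. The replicate numbers did not pair the samples outside 501Mel shMITF, where 2 samples per group could not show it. All 10 receptors were named. From the lists of ligands, related receptors and adaptors, up to 4 called genes per direction were named, with at least 100 mean counts in a group and groups that did not overlap. Direct ligands of a receptor could be added, as KITLG and GAS6 were. The members and lists were chosen with earlier results of these data known. Protein sequences were not used here. The values of 1 related receptor are not reported here.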

Additional observations from a re-analysis of the deposited data

Results flagged for a closer look

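The response to shBRG1 differed between the 2 cell lines for 7 of the 10 receptors by the interaction test (edgeR, adjusted p under 0.05), which drew attention to them. The difference, 501Mel minus Hermes 3A on the log2 scale, was -1.61 for ERBB3, -1.72 for KIT, -0.81 for EDNRB, 1.61 for EGFR, -0.63 for FGFR1, -1.80 for MET and -1.72 for IGF1R. EGFR held only 3 to 13 counts in the 501Mel shSCR1 samples. The background is wide, since 57.9% of the 21697 genes passed the same test at an adjusted p under 0.05. MITF and SOX10 also fell more in 501Mel, by 1.15 and 2.07 on that scale, and their part in the receptor differences was not tested.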

How the results depend on the processing

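With library sizes in place of TMM factors, the median log2 change of all genes moved from 0.05 to 0.40 in 501Mel shBRG1, from 0.01 to 0.11 in Hermes 3A shBRG1 and from 0.05 to 0.14 in Hermes 3A shMITF cells, and small values turned: FGFR1 to 0.029 (501Mel shBRG1), EGFR to 0.037 and MET to 0.010 (Hermes 3A shBRG1), IGF1R to 0.089 (Hermes 3A shMITF), ERBB3 to 0.012 (shBRG1 minus shMITF in 501Mel), PDGFRB to 0.17 (shSCR1 against Hermes 3A) and EDNRB to -0.049 (shSCR2 against shSCR1, or -0.033 with at least 10 counts per sample). With shSCR1 and shSCR2 pooled, 327 genes were called higher and 248 lower in 501Mel shMITF cells, 1 receptor was called higher, and ERBB3 (0.14), KIT (-0.14), NGFR (-0.00062) and SMARCA4 (0.29) changed sign. With all groups of the line in 1 fit these counts were 1596 and 922. The cause of these changes was not tested.

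A minimum of 10 counts in every sample removes AXL, EGFR and PDGFRB from some fits and NGFR from each fit with shSCR2 samples. With it, 2567 genes and 2 receptors were called higher in 501Mel shBRG1, 0 receptors in 501Mel shMITF, 634 genes and 1 receptor in Hermes 3A shBRG1 and 1 receptor in Hermes 3A shMITF cells. The same filter left 3560 genes called in the shBRG1 interaction, 1 receptor in the contrast of the 2 hairpins, and 4121, 4613 and 3132 genes with 2, 2 and 1 receptors in the contrasts of scramble groups. By DESeq2, 1 receptor was called higher in 501Mel shMITF cells, 1 in the contrast of the 2 hairpins, and 908 genes in the shMITF interaction. Without the fold threshold, 8442 genes were higher and 8022 lower in 501Mel shBRG1, 1775 and 1862 in 501Mel shMITF (3 receptors lower), 4862 and 4934 in Hermes 3A shBRG1 (6 receptors higher, 2 lower), and 1296 and 1510 in Hermes 3A shMITF cells.

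Outside 501Mel shMITF the replicate numbers did not pair the samples. Deviations of samples of the same number correlated at 0.007 (501Mel shBRG1), 0.02 (Hermes 3A shBRG1) and -0.03 (Hermes 3A shMITF) on average. In 501Mel shMITF, with 2 samples per group, the 2 pairs give a single value. It was 0.131, and -0.131 for unlike numbers, and cannot tell whether the samples were paired. With the replicate block, 2 receptors instead of 1 were called lower in 501Mel shMITF cells, since ERBB3 passed at -1.28 (adjusted p = 0.018 by edgeR).

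Leaving out 1 replicate gave ranges as follows. In 501Mel shMITF cells 543 to 1273 genes and 1 to 2 receptors were called higher, the lowest gene count without shMITF replicate 2 (543). In Hermes 3A shBRG1 cells 1 to 3 receptors were called higher, the lowest without shSCR replicate 2. In Hermes 3A shMITF cells 236 to 692 genes and 1 to 3 receptors were called higher and 354 to 898 genes lower, the lowest without 1 of the controls, and FGFR1 ranged from -0.12 to 0.23, IGF1R from -0.054 to 0.057 and SOX10 from -0.24 to 0.58. In the shMITF interaction 152 to 803 genes and 0 to 1 receptors were called, with EDNRB from -0.27 to 0.25, EGFR from -0.17 to 0.90 and PDGFRB from -0.26 to 0.35. PDGFRB ranged from -0.10 to 0.58 in the shBRG1 interaction, and ERBB3 from -1.04 to 1.46 and NGFR from -1.81 to 0.80 in the contrast of hairpins. Between scramble groups, AXL ranged from -0.25 to 0.20 and PDGFRB from -0.34 to 0.15 (shSCR1 against Hermes 3A), ERBB3 from -0.54 to 0.77 and AXL from -1.04 to 0.19 (shSCR2 against Hermes 3A), and EDNRB from -0.020 to 0.21, AXL from -1.07 to 0.16 and EGFR from -0.80 to 0.35 (shSCR2 against shSCR1).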
